A study of Mus musculus with 11 samples.

Results

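Xenobiotic cytochrome P450 genes were examined in hepatocytes with (Xbp1 fl/fl) and without (Xbp1 LKO) Xbp1, as the protein-coding genes of the Cyp1a, Cyp2c, Cyp2d, Cyp2e, Cyp2f, Cyp2j and Cyp3a families. They were found by symbol in the GENCODE M21 annotation and by Ensembl identifier in the count files, which gave 44 members among 54232 gene identifiers. Cyp1a had 2 members (chromosome 9), Cyp2c had 15 (chromosome 19), Cyp2d had 8 (chromosome 15), Cyp2e and Cyp2f had 1 each (chromosome 7), Cyp2j had 8 (chromosome 4) and Cyp3a had 9 (chromosome 5). Pseudogenes with the same symbol pattern (20) were not members.

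Adult male C57BL/6 mice carried floxed Xbp1 alleles, and Xbp1 LKO mice also carried Cre driven by the albumin promoter, which acts in hepatocytes of the liver. Mice of both genotypes received chow or an HFS diet, a Western diet with fructose and glucose in the drinking water, over at most 6 weeks. Cells were purified on a Percoll gradient, and hepatocyte RNA was sequenced in 11 libraries, of which 3 were from chow-fed Xbp1 fl/fl, 2 from chow-fed Xbp1 LKO, 3 from HFS-fed Xbp1 fl/fl and 3 from HFS-fed Xbp1 LKO mice. Each HFS-fed cohort of 6 mice was pooled into its 3 libraries, while no pooling is stated for chow-fed mice, so diet and pooling cannot be told apart. P-values therefore measured the spread between these libraries.

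Cytochrome P450 enzymes of these families are heme proteins of the endoplasmic reticulum that insert 1 oxygen atom into drugs, pollutants, steroids and fatty acids, with electrons passed on by P450 reductase (Por). In the liver lobule most of them are concentrated around the central vein, while Cyp2f2 is known for its expression around the portal tract. Several are under control of the xenobiotic receptors Ahr, Nr1i2 (PXR) and Nr1i3 (CAR), and some differ between male and female mice under the pattern of growth hormone release. Xbp1 is a transcription factor of the unfolded protein response of the same organelle.

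Of the 44 members, 7 passed the test in at least 1 comparison, and the bases just upstream of the start are shown for the 6 of them that were found in the RefSeq promoter table (GRCm38.p6), because their counts carry the comparisons that follow. Cyp2d12 was the other. Each is printed 5′ to 3′ on the gene's own strand and ends before both the RefSeq and the GENCODE start. Capitals mark matches, on either strand, to 1 of the motifs searched. The windows are chr7:27119705-27119908 (plus strand) for Cyp2f2, chr19:39463076-39463325 (minus) for Cyp2c38, chr19:39510572-39510821 (plus) for Cyp2c39, chr15:82764184-82764372 (minus) for Cyp2d40, chr5:146009619-146009868 (minus) for Cyp3a25 and chr5:146079008-146079256 (plus) for Cyp3a59.
Cyp2f2: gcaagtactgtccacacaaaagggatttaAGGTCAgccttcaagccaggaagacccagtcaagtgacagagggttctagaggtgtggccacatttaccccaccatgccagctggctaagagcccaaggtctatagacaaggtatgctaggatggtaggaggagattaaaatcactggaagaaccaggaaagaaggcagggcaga
Cyp2c38: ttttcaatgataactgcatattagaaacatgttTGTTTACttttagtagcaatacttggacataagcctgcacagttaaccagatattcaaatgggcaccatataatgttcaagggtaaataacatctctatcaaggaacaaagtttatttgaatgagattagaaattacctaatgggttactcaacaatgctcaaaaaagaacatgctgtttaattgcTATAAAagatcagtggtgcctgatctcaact
Cyp2c39: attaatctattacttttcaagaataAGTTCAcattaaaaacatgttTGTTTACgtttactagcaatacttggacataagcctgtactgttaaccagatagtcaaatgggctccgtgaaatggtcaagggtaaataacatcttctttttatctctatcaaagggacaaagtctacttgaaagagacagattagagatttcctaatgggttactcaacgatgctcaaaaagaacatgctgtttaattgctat
Cyp2d40: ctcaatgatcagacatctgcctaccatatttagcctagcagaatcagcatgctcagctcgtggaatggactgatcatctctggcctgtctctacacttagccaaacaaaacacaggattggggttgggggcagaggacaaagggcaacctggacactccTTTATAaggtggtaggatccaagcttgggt
Cyp3a25: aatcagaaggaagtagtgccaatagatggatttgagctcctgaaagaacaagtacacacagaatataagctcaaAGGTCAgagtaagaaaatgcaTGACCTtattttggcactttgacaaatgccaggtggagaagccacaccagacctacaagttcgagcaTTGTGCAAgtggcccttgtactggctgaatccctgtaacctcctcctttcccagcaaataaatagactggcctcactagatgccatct
Cyp3a59: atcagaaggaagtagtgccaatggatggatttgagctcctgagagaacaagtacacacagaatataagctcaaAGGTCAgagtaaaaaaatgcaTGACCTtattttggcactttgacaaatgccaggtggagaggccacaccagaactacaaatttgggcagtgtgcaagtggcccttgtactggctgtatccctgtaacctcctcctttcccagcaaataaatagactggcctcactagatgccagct

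Motifs were searched on both strands in the 250 bases before the RefSeq start, in 38 members and in 32851 promoters of the table. The nuclear receptor half-site AGGTCA was in 9 of the 38 members and in 14.0% of all promoters, and among the genes shown it was upstream of Cyp2f2, Cyp3a25 and Cyp3a59. Cyp3a25 and Cyp3a59 each held it once on either strand, and the reverse copies read TGACCT. The variant half-site AGTTCA was in 8 members (11.8% of all promoters), Cyp2c39 among them. The FOXA core TGTTTAC, likewise in 8 members (3.17% of all promoters), stood upstream of both Cyp2c38 and Cyp2c39. An HNF4 core spelled CAAAGTCC was in 11 members and in 1.20% of all promoters, but in no gene shown. A C/EBP motif spelled TTGCNNAA was in 6 members (9.56% of all promoters), and Cyp3a25 had it where Cyp3a59 did not. The TATA box TATAAA was in 21 members against 12.4% of all promoters, 31 bases before the start of Cyp2c38 and, as its reverse, upstream of Cyp2d40. The window of Cyp2c39 ends in tttaattgctat, within the stretch where Cyp2c38 reads tttaattgcTATAAA. Whether Cyp2c39 has the motif there therefore cannot be read from its window. The unfolded protein response element TGACGTGG was in 0 members and in 0.563% of all promoters. These matches describe letters and not sites in use.

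Both pairs of neighbours among these genes lie head to head, Cyp2c38 and Cyp2c39 with 47.8 kb between them, Cyp3a25 and Cyp3a59 with 69.6 kb. Of 37 pairs of neighbouring members, 7 had this orientation, 24 ran on the same strand and 6 lay tail to tail. In their 250 upstream bases Cyp3a25 and Cyp3a59 were 94.8% identical, the second highest of 146 pairs within families. Cyp2c38 and Cyp2c39 were 71.0% identical, against a median of 53.0% for Cyp2c pairs. The RefSeq start of Cyp2c39 lies 40 bases from its GENCODE start, and the windows of these 2 genes are offset against each other. Unmatched ends counted against identity, so 71.0% understates the likeness of the stretch that both windows cover.

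Total counts were 19191032 to 23888401 per library, and the members together took 2.31% to 3.48% of them. Levels are given as CPM, counts scaled to a common library size by TMM factors, which were 0.878 to 0.938 in Xbp1 fl/fl and 1.05 to 1.19 in Xbp1 LKO libraries. Xbp1 itself fell by 0.87 on the log2 scale (SE 0.18, adjusted p = 0.0183, edgeR) on chow and by 1.26 (SE 0.16, adjusted p = 0.00254) on the HFS diet, and its gene-level counts pool deleted and retained exons. Hepatocyte markers were abundant in all libraries, with 14 of 15 listed genes found and all 14 detected everywhere. Their summed level was 150049 to 181177 CPM in chow-fed Xbp1 fl/fl, 46429 to 79006 in chow-fed Xbp1 LKO, 129207 to 143388 in HFS-fed Xbp1 fl/fl and 63709 to 96995 in HFS-fed Xbp1 LKO libraries. Chow-fed Xbp1 LKO library 2 stood apart, with the lowest albumin share (1.67% of counts, against 3.33% to 10.9% in the others) and the highest TMM factor. Where leaving it out changed the call of a member in a comparison of chow-fed Xbp1 LKO, the value without it is given. A fit without either chow-fed Xbp1 LKO library leaves 1 library in that group. A call lost there therefore cannot be told from the loss of a replicate.

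The members covered a wide range of levels. Counted per kb of exon, to compare genes of unequal length, Cyp2e1 led with a mean of 5409 CPM per kb over the 4 groups. Cyp2e1 oxidizes ethanol and acetaminophen. Cyp3a11, the main Cyp3a of mouse liver, followed with 788 CPM per kb, then Cyp2c29 with 690.5, Cyp2d26 with 573, Cyp2d9 with 542, Cyp1a2 with 411, Cyp2d10 with 396, Cyp2f2 with 374, Cyp2c70 with 348 and Cyp2j5 with 331. The group means of Cyp2e1 (4711 to 7179 CPM per kb) lay above those of all other members, whereas Cyp2f2 moved from 735 in chow-fed Xbp1 fl/fl to 65.2 in chow-fed Xbp1 LKO and so changed its place in the order. By plain mean CPM, 24 members were above 10 and 19 of these above 100.

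**Figure D1:**
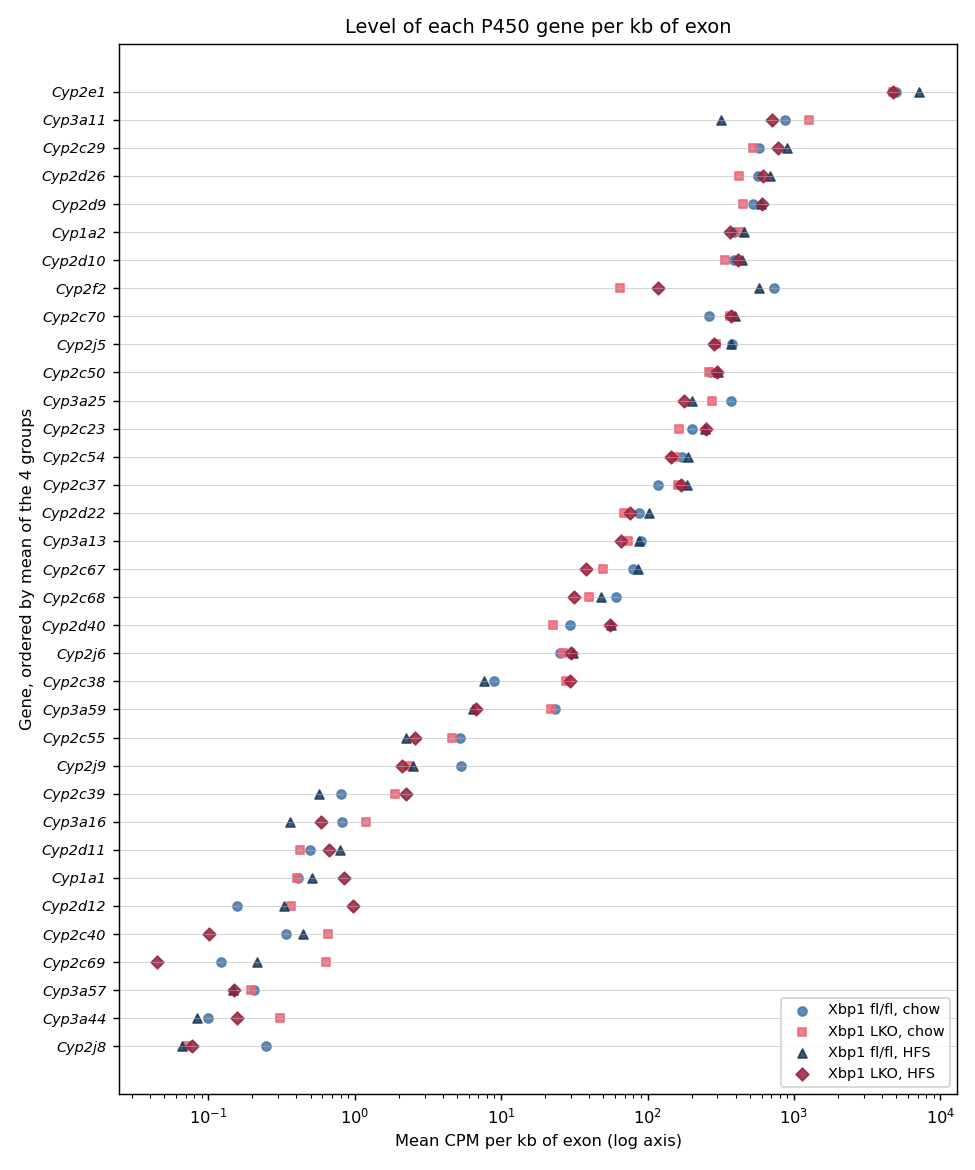
Mean level of each member in the 4 groups, in CPM per kb of exon on a log axis, 1 point per group, for the 35 members with a mean of at least 0.1. Cyp2e1 lies highest in every group, and the points of Cyp2f2 spread from 735 down to 65.2.

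The member with the highest mean CPM of each family, not counted per length, was followed in every library. Cyp1a2, which oxidizes caffeine and arylamines, was at 684, 1049 and 626 CPM in chow-fed Xbp1 fl/fl, 1154 and 585 in chow-fed Xbp1 LKO, 919.7, 909 and 919.8 in HFS-fed Xbp1 fl/fl, and 625, 569.9 and 1028 in HFS-fed Xbp1 LKO libraries. Cyp2c29, a Cyp2c enzyme inducible by CAR ligands, was at 1578, 1939 and 1743 CPM, then 2179 and 1034, then 2055, 3645 and 2467, then 2396, 2650.1 and 2069.5 in the same order of groups. The ranges of both genes overlapped between genotypes on either diet.

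Cyp2d9, a testosterone hydroxylase known to be higher in males, was at 1174, 1688 and 1336 CPM in chow-fed Xbp1 fl/fl, 1374 and 1008 in chow-fed Xbp1 LKO, 1746, 1419 and 1576 in HFS-fed Xbp1 fl/fl, and 1732, 1705 and 1353 in HFS-fed Xbp1 LKO libraries. Cyp2j5, an arachidonic acid epoxygenase, was at 739, 899 and 1019 CPM, then 745 and 631, then 888, 795 and 913, then 717, 712 and 569.6. Cyp2d26, higher than Cyp2d9 per kb, was at 892, 1221 and 953 CPM, then 893 and 606, then 1176, 1041 and 1474, then 1268, 1122 and 936. On the HFS diet all 3 Xbp1 LKO values of Cyp2j5 lay below the 3 Xbp1 fl/fl values, although the gene did not pass the test, while the ranges of Cyp2d9 and Cyp2d26 overlapped.

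Cyp2e1 was at 9751, 11688 and 10978 CPM in chow-fed Xbp1 fl/fl, 12739 and 7717 in chow-fed Xbp1 LKO, 16481, 12884 and 17112 in HFS-fed Xbp1 fl/fl, and 9907, 9533 and 11060.3 in HFS-fed Xbp1 LKO libraries. All HFS-fed Xbp1 fl/fl values lay above all HFS-fed Xbp1 LKO values, with a log2 fold change of -0.61 (SE 0.20, adjusted p = 0.133 by edgeR, 0.0198 by DESeq2). In the chow-fed libraries the Xbp1 LKO values lay on either side of the Xbp1 fl/fl values.

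The first comparison asked how loss of Xbp1 altered the members on chow. Of the 34 members with enough counts to be tested, 1 was higher and 1 lower in Xbp1 LKO, against 1.73% of all genes tested called higher and 3.02% called lower. Cyp2f2, a periportal enzyme that activates naphthalene, was 11.3-fold lower. Cyp2c38, a Cyp2c gene known to be higher in female mouse liver, was 3.06-fold higher. Estimated changes were positive in 12 members and negative in 22, with a median log2 fold change of -0.11 (all genes 0.00). Scaled by library totals, which moved the median over all genes to 0.33 on chow and 0.27 on the HFS diet, these were 25 and 9, with a median of 0.21, so the signs of small changes depended on the scaling. With them 2685 of 3000 genes called on chow were higher, against 230 of 632 with TMM, and 1288 of 1483 on the HFS diet, against 256 of 543.

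Cyp2f2 was at 1095, 1869 and 1502 CPM in chow-fed Xbp1 fl/fl and at 197 and 66.8 in chow-fed Xbp1 LKO hepatocytes. Both Xbp1 LKO values lay below all Xbp1 fl/fl values, a log2 fold change of -3.49 (SE 0.54, adjusted p = 0.00557, edgeR). Without chow-fed Xbp1 LKO library 2 the log2 fold change was -2.92 and no longer passed (adjusted p = 0.0588). In a bulk preparation fewer cells of a type and less RNA per cell cannot be told apart, so the values do not separate a loss of periportal hepatocytes from less Cyp2f2 RNA in each. Set against Cyp2e1 within the same library, Cyp2f2 gave 11.2, 16.0 and 13.7 CPM per 100 CPM of Cyp2e1 in chow-fed Xbp1 fl/fl, and 1.55 and 0.866 in chow-fed Xbp1 LKO. The summed hepatocyte markers were lower in the same libraries, as given above, and their part in the result was not tested.

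Cyp2c38 was at 36.2, 13.9 and 27.4 CPM in chow-fed Xbp1 fl/fl and 91.0 and 67.0 in chow-fed Xbp1 LKO hepatocytes. The groups did not overlap, and the log2 fold change was 1.61 (SE 0.36, adjusted p = 0.0286, edgeR). The call was lost without either chow-fed Xbp1 LKO library (without library 2 the log2 fold change was 1.81, adjusted p = 0.098) or without chow-fed Xbp1 fl/fl library 2 or 3 (adjusted p 0.0587 to 0.101 over the 4 fits). The third smallest p belonged to Cyp3a44, another Cyp3a known from female liver, with a log2 fold change of 1.59 (SE 0.51, adjusted p = 0.106) at a level of 0.0980 to 0.768 CPM. Groups did not overlap in 11 of the 34 members (8 above, 3 below), against 31.3% of all genes tested.

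On the HFS diet the genotypes were compared in the same way. Of the 34 members 3 were higher and 1 lower in Xbp1 LKO, against 1.92% of all genes tested called higher and 2.16% called lower. Cyp2c38 was 3.91-fold higher, Cyp2c39, which hydroxylates retinoic acid, was 3.96-fold higher, and Cyp2d12 was also higher. Cyp2f2 was 4.87-fold lower. Estimates were positive in 12 members and negative in 22 with a median of -0.13 (all genes 0.01), and with library totals positive in 22 and negative in 12 with a median of 0.13. The comparisons on the 2 diets use different libraries but share the fit's estimate of spread.

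Cyp2f2 was at 997, 1394 and 1109 CPM in HFS-fed Xbp1 fl/fl and 390.5, 155 and 174 in HFS-fed Xbp1 LKO libraries. All 3 Xbp1 LKO values were below the Xbp1 fl/fl values, a log2 fold change of -2.28 (SE 0.43, adjusted p = 0.0141, edgeR), and the call was lost without HFS-fed Xbp1 LKO library 2 (adjusted p = 0.0764) or 3 (adjusted p = 0.0673). Per 100 CPM of Cyp2e1 the values were 6.05, 10.8 and 6.48 in Xbp1 fl/fl and 3.94, 1.62 and 1.58 in Xbp1 LKO libraries, again without overlap.

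Cyp2c38 was at 16.6, 16.6 and 32.1 CPM in HFS-fed Xbp1 fl/fl and 77.2, 102 and 75.8 in HFS-fed Xbp1 LKO libraries, a log2 fold change of 1.97 (SE 0.34, adjusted p = 0.00922, edgeR). This call held in all 19 alternative fits, including those without each library in turn. Its neighbour Cyp2c39 was far lower, at 0.857, 0.865 and 1.37 CPM in HFS-fed Xbp1 fl/fl against 3.38, 4.57 and 4.33 in HFS-fed Xbp1 LKO libraries, with a log2 fold change of 1.98 (SE 0.39, adjusted p = 0.0169). It was lost without any 1 of HFS-fed Xbp1 fl/fl libraries 1 and 2 or HFS-fed Xbp1 LKO libraries 2 and 3 (adjusted p 0.0544 to 0.0777).

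On chow Cyp2c39 was at 2.59, 0.925 and 0.896 CPM in Xbp1 fl/fl and 3.37 and 3.45 in Xbp1 LKO libraries, and did not pass (log2 fold change 1.21, adjusted p = 0.128). Of the 50-base windows of Cyp2c39 transcripts 11% also occur in Cyp2c38, and of those of Cyp2c38 6.9% occur in Cyp2c39. Cyp2c39 amounted to 3.27 to 7.16 CPM per 100 CPM of Cyp2c38 over the 11 libraries. Whether reads from the shared windows were left out of the counts of both genes or given to either was not tested.

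Cyp2d12, of a family whose human counterpart metabolizes many drugs, was at 1.19, 1.58 and 1.08 CPM in HFS-fed Xbp1 fl/fl and 6.31, 2.71 and 2.22 in HFS-fed Xbp1 LKO libraries. The groups did not overlap, but HFS-fed Xbp1 LKO library 1 was well above the other 2. The log2 fold change of 1.54 (SE 0.39, adjusted p = 0.0497, edgeR) became 0.95 (adjusted p = 0.129) without that library. Among the 11 fits that left out 1 library each, the call held only in that without HFS-fed Xbp1 LKO library 3, and it was lost in 14 of all 19 alternative fits. On chow it was at 0.662, 0.462 and 0.697 CPM in Xbp1 fl/fl and 1.54 and 1.31 in Xbp1 LKO libraries (log2 fold change 1.22, adjusted p = 0.178). In the HFS comparison 11 of the 34 members did not overlap between genotypes (5 above, 6 below), against 26.1% of all genes tested.

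**Figure D2:**
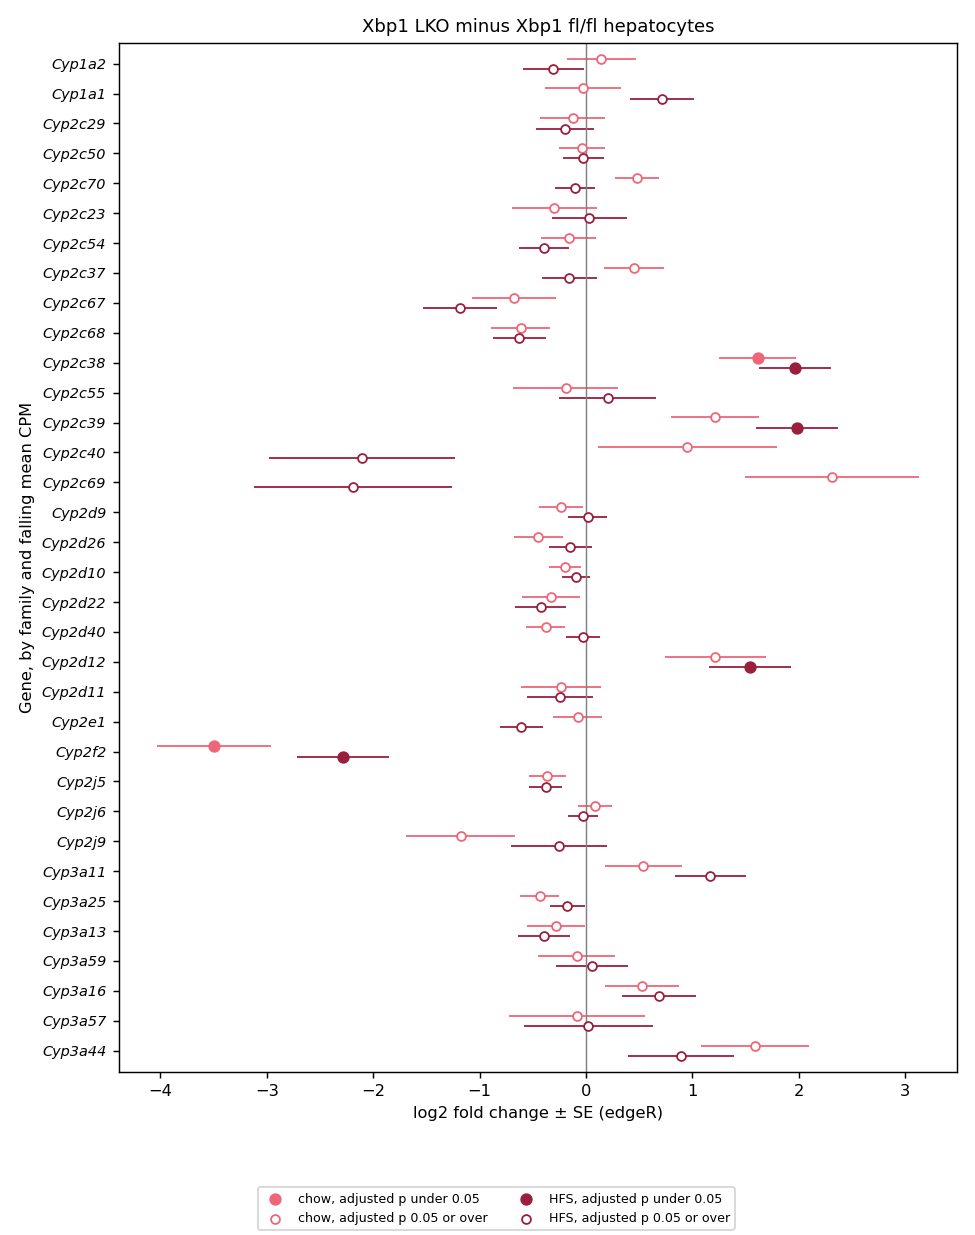
Log2 fold change of Xbp1 LKO over Xbp1 fl/fl with its standard error for the 34 tested members, on chow and on the HFS diet. Filled points passed the adjusted threshold of 0.05, which were Cyp2f2 and Cyp2c38 on chow and Cyp2f2, Cyp2c38, Cyp2c39 and Cyp2d12 on the HFS diet.

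Diet was then compared within each genotype. In Xbp1 fl/fl mice 1 of the 34 members was higher and 2 were lower on the HFS diet, against 0.135% and 0.293% of all genes tested. Cyp2d40 was 1.92-fold higher, Cyp3a25 was 1.85-fold lower and Cyp3a59 was 3.61-fold lower. Estimates were positive in 20 members and negative in 14, with a median of 0.17. The chow-fed Xbp1 fl/fl libraries are those of the chow genotype comparison, so the comparisons are not independent.

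Cyp2d40 was at 62.3, 52.4 and 44.7 CPM in chow-fed and 106, 106 and 94.7 in HFS-fed Xbp1 fl/fl libraries, a log2 fold change of 0.94 (SE 0.16, adjusted p = 0.0414, edgeR). In Xbp1 LKO libraries it was at 36.3 and 45.5 CPM on chow and 123, 89.6 and 87.6 on the HFS diet, 2.45-fold higher (log2 fold change 1.29, SE 0.19, adjusted p = 0.0457). All HFS-fed values of the gene lay above all chow-fed values in both genotypes. The call held in 5 of the 11 fits without 1 library in Xbp1 fl/fl (adjusted p up to 0.14) and in 2 of 11 in Xbp1 LKO, where it was 1.47 (adjusted p = 0.12) without chow-fed library 2.

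Cyp3a25, a constitutive Cyp3a of mouse liver, was at 758, 754 and 798 CPM in chow-fed and 325, 469 and 453 in HFS-fed Xbp1 fl/fl libraries. The groups did not overlap, with a log2 fold change of -0.89 (SE 0.16, adjusted p = 0.0489, edgeR). In Xbp1 LKO libraries the values were 630.0 and 509 CPM on chow and 409, 375 and 321 on the HFS diet (log2 fold change -0.63, adjusted p = 0.235), again without overlap.

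Cyp3a59, its neighbour with the near-identical upstream bases shown above, was at 53.8, 58.4 and 27.98 CPM in chow-fed and 7.05, 14.97 and 16.8 in HFS-fed Xbp1 fl/fl libraries, a log2 fold change of -1.85 (SE 0.34, adjusted p = 0.0489, edgeR). In Xbp1 LKO libraries it was at 44.1 and 43.9 CPM on chow and 14.0, 17.1 and 9.39 on the HFS diet (log2 fold change -1.71, SE 0.36, adjusted p = 0.152). Every HFS-fed value lay below every chow-fed value in both genotypes. Of the windows of Cyp3a59 transcripts 26.8% occur in Cyp3a25 and of those of Cyp3a25 25.2% occur in Cyp3a59, so their separate levels are uncertain. Where reads from the shared windows were counted was not tested.

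Both Cyp3a calls stood close to the threshold. Cyp3a25 held in 2 of the 11 fits without 1 library (adjusted p up to 0.168), and Cyp3a59 only in that without chow-fed Xbp1 fl/fl library 3 (up to 0.154), while with RLE size factors they missed it (adjusted p 0.0507 and 0.0505).

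**Figure D3:**
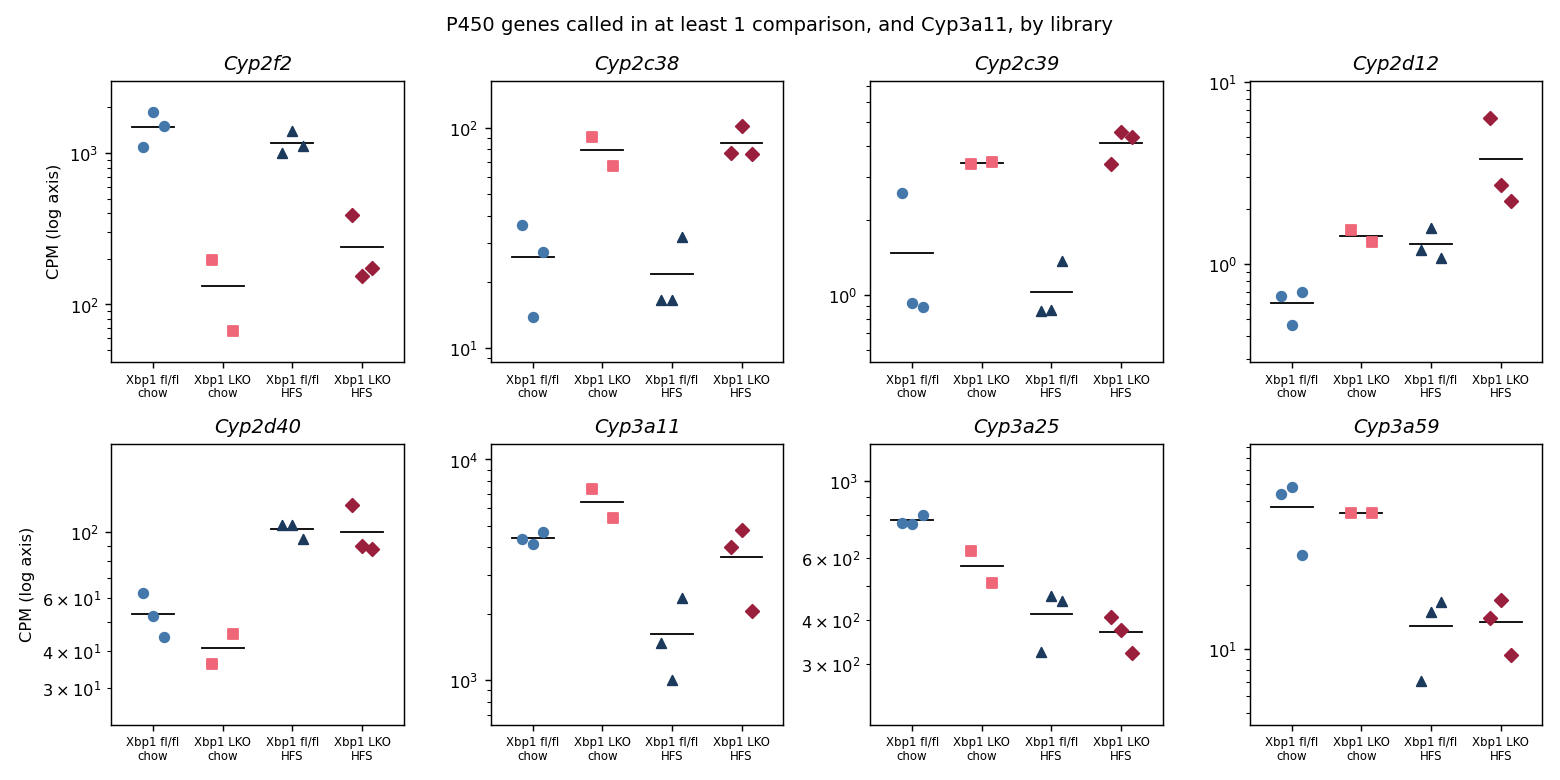
CPM in each of the 11 libraries, on a log axis, for the 7 members that passed a test and for Cyp3a11. Points are libraries and lines are group means. Cyp2f2 separates the genotypes downward and Cyp2c38 upward on both diets, and Cyp2d40, Cyp3a25 and Cyp3a59 separate the diets in both genotypes.

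Cyp3a11 passed in no comparison in the main edgeR fit but in 2 by DESeq2, and spread widely. Other edgeR settings called it too. It was called higher in HFS-fed Xbp1 LKO with library totals, with no filter on low counts and without HFS-fed Xbp1 LKO library 3. With no filter it was also called lower on the HFS diet in both genotypes. Its values by library follow. It was at 4350.3, 4144 and 4715 CPM in chow-fed Xbp1 fl/fl, 7365 and 5439 in chow-fed Xbp1 LKO, 1478, 1009 and 2357 in HFS-fed Xbp1 fl/fl, and 4002, 4802 and 2070.1 in HFS-fed Xbp1 LKO libraries. All HFS-fed Xbp1 fl/fl values lay below all chow-fed ones, and both chow-fed Xbp1 LKO values lay above all chow-fed Xbp1 fl/fl values, while the genotypes overlapped on the HFS diet.

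Its log2 fold change was -1.45 (SE 0.34, adjusted p = 0.126, edgeR) for diet in Xbp1 fl/fl and -0.82 (adjusted p = 0.378) for diet in Xbp1 LKO. For genotype it was 0.54 (adjusted p = 0.466) on chow and 1.17 (adjusted p = 0.0785) on the HFS diet. With DESeq2 as the tool, Cyp3a11 was among 3 members called lower on the HFS diet in Xbp1 fl/fl, beside Cyp3a25 and Cyp3a59 (adjusted p = 0.000727, against 0.861% of all genes called lower by DESeq2). It was also among 4 members called higher in HFS-fed Xbp1 LKO (3.49% of all genes). Per 100 CPM of Cyp2e1, Cyp3a11 was 35.5 to 44.6 in chow-fed Xbp1 fl/fl, 57.8 and 70.5 in chow-fed Xbp1 LKO, 7.83 to 13.8 in HFS-fed Xbp1 fl/fl and 18.7 to 50.4 in HFS-fed Xbp1 LKO libraries, with no overlap between any of these groups except the Xbp1 fl/fl libraries on chow and the Xbp1 LKO libraries on the HFS diet.

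In Xbp1 LKO mice 1 member, Cyp2d40, was higher on the HFS diet and 0 were lower by edgeR, against 0.0451% and 0.015% of all genes tested. DESeq2 called 3 lower, Cyp2c69, Cyp3a25 and Cyp3a59, against 0.451% of all genes. At an unadjusted p under 0.05 by edgeR, 4 members were higher and 6 lower, against 7.49% and 5.16% of all genes tested. Cyp2c69, a low-level gene of the female-biased list, had a log2 fold change of -3.72 (SE 0.89, adjusted p = 0.186) between 0.469 and 1.70 CPM on chow and 0.0407, 0.112 and 0.0767 on the HFS diet, and -2.51 (adjusted p = 0.705) without chow-fed library 2. In Xbp1 LKO 17 estimates were positive and 17 negative, with a median of 0.00. Groups did not overlap in 13 of 34 members for diet in Xbp1 fl/fl (13.7% of all genes tested) and in 13 for diet in Xbp1 LKO (31.1%).

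**Figure D4:**
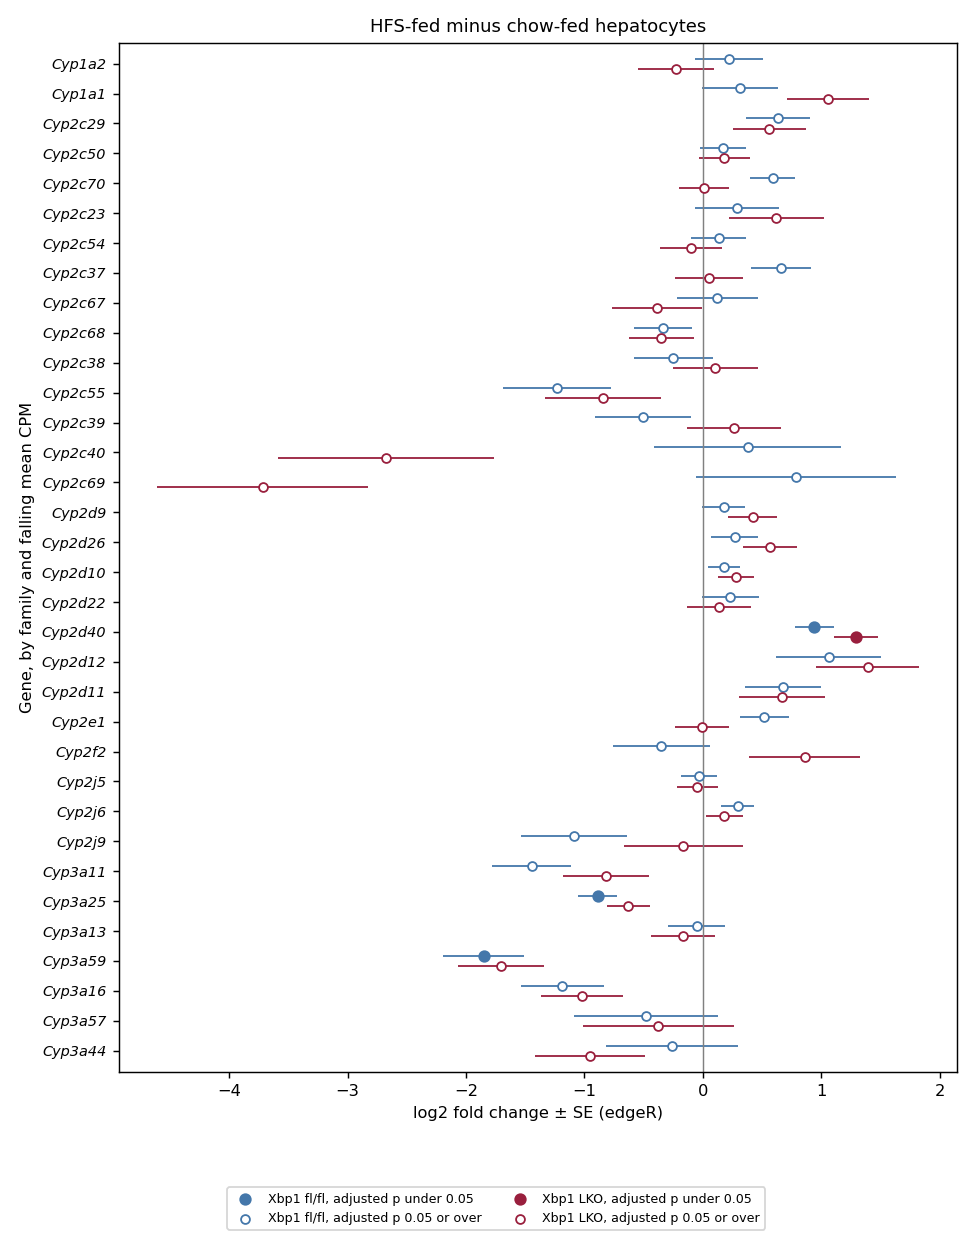
Log2 fold change of the HFS diet over chow with its standard error for the 34 tested members, in Xbp1 fl/fl and in Xbp1 LKO mice. Filled points passed the adjusted threshold of 0.05, which were Cyp2d40, Cyp3a25 and Cyp3a59 in Xbp1 fl/fl and Cyp2d40 in Xbp1 LKO.

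Whether the genotype effect differed between diets was tested by the interaction. By edgeR 0 members passed, as did 0% of all genes tested (816 genes had an unadjusted p under 0.05), and 2 members had an unadjusted p under 0.05. DESeq2 called 29 genes in all. The smallest p belonged to Cyp2c69 (log2 difference -4.50, SE 1.24, adjusted p = 0.659), Cyp2c40 (-3.05, SE 1.21, adjusted p = 0.765) and Cyp2c70 (-0.58, SE 0.28, adjusted p = 0.818). Cyp2c70 makes the muricholic acids of mouse bile and was at 494 to 879.6 CPM.

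Cyp2c69 and Cyp2c40 were low and uneven. Cyp2c69 was at 0.165, 0.116 and 0.349 CPM in chow-fed and 0.762, 0.0509 and 0.294 in HFS-fed Xbp1 fl/fl libraries. Cyp2c40 was at 0.662, 0.405 and 0.996 CPM in chow-fed Xbp1 fl/fl, 0.597 and 2.10 in chow-fed Xbp1 LKO, 2.19, 0.255 and 0.245 in HFS-fed Xbp1 fl/fl, and 0.163, 0.260 and 0.192 in HFS-fed Xbp1 LKO libraries. In chow-fed Xbp1 LKO the higher value of both genes was that of library 2, without which the log2 differences were -3.30 (Cyp2c69, adjusted p = 0.983) and -1.89 (Cyp2c40, adjusted p = 1), and in HFS-fed Xbp1 fl/fl that of library 1. Of their 50-base windows 39.7% for Cyp2c40 and 45.7% for Cyp2c69 occur in no other gene, so their levels are uncertain.

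Summed over families, the members had group means of 27316 CPM in chow-fed Xbp1 fl/fl, 26340 in chow-fed Xbp1 LKO, 30761 in HFS-fed Xbp1 fl/fl and 25209 in HFS-fed Xbp1 LKO. Scaled by library totals these means were 24769, 29737, 28260 and 27704, so their order depended on the scaling. No test was made on sums. The Cyp3a total was 5488 ± 280 CPM (SD, n = 3), 7237 ± 1399 (n = 2), 2301 ± 663 (n = 3) and 4203 ± 1474 (n = 3) in that order of groups, and Cyp3a11 was most of it. As a share of all members Cyp3a went from 20.2% to 7.41% with diet in Xbp1 fl/fl and from 27.96% to 16.5% in Xbp1 LKO.

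Cyp2e1 took 39.5% of the members' CPM in chow-fed Xbp1 fl/fl, 38.6% in chow-fed Xbp1 LKO, 50.2% in HFS-fed Xbp1 fl/fl and 40.6% in HFS-fed Xbp1 LKO. The Cyp2c total was 4296, 4266, 5858 and 5287 CPM in the same order of groups, the Cyp2d total 3457, 2814, 4040 and 3787, the Cyp2j total 994, 792, 985 and 782, and the Cyp1a total 787, 870, 918 and 743.

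**Figure D5:**
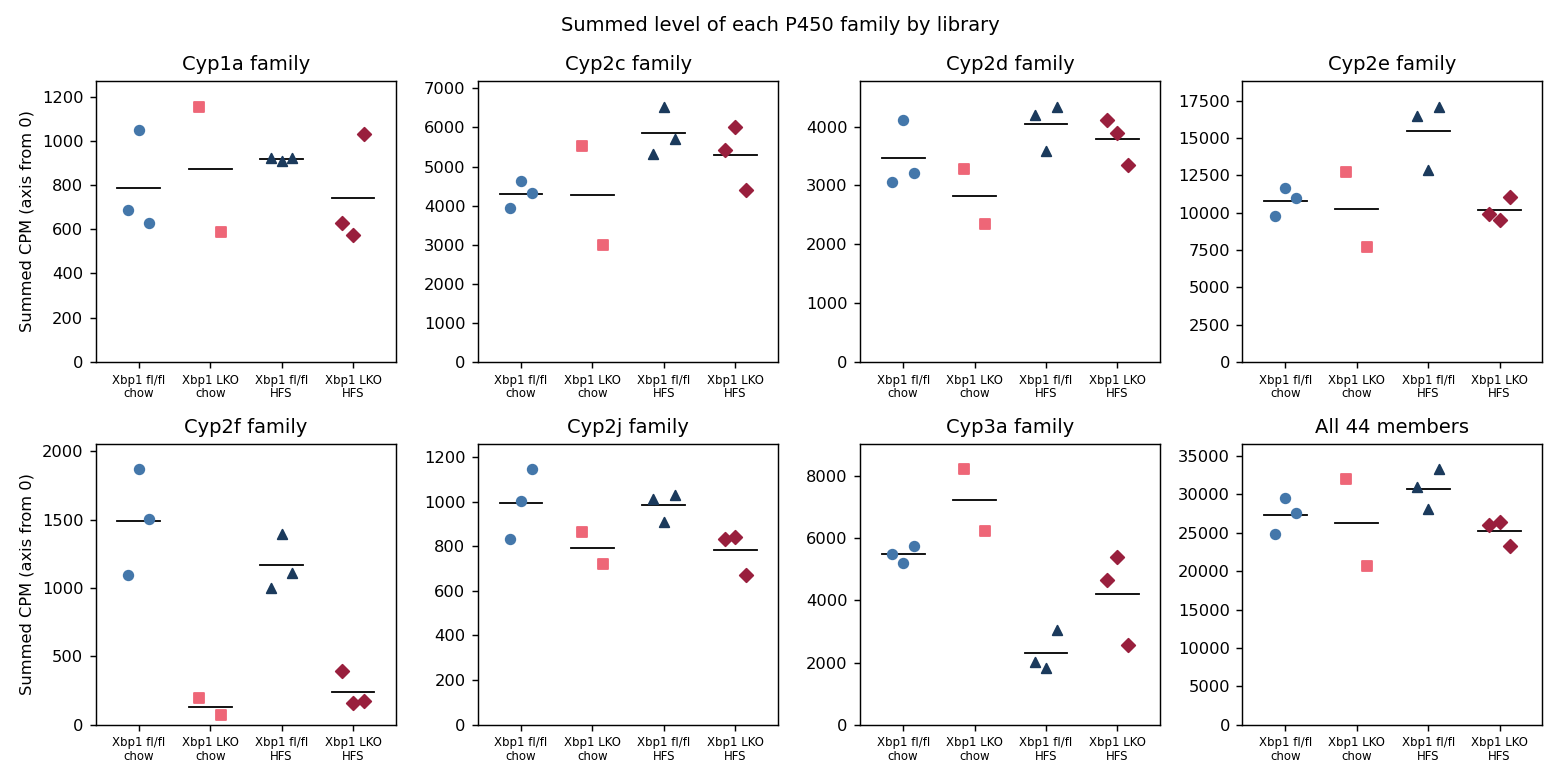
Summed CPM of each family per library in the 4 groups, on axes that start at 0, with lines at group means. The Cyp3a total has its lowest mean, 2301, in HFS-fed Xbp1 fl/fl and its highest, 7237, in chow-fed Xbp1 LKO.

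Members were also grouped by where in the lobule they are known to be expressed. Of 8 pericentral members (Cyp1a2, Cyp2e1, Cyp2c29, Cyp2c37, Cyp2c50, Cyp2c54, Cyp3a11 and Cyp3a25) 0 passed by genotype on either diet with edgeR, although DESeq2 called Cyp2e1 lower and Cyp3a11 higher on the HFS diet (4.08% and 3.49% of all genes). Their median log2 fold change was -0.06 on chow (5 negative, 3 positive) and -0.19 on the HFS diet (7 negative, 1 positive). Without chow-fed Xbp1 LKO library 2 the chow median was 0.29 (1 negative, 7 positive), so its sign rested on that library. Between diets, edgeR called Cyp3a25 lower in Xbp1 fl/fl, while DESeq2 called Cyp3a11 and Cyp3a25 lower in Xbp1 fl/fl and Cyp3a25 lower in Xbp1 LKO. The periportal member Cyp2f2 passed by genotype on both diets and in neither diet comparison.

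By the sex in which they are known to be higher, 8 members were female-biased, of which 6 could be tested. In these libraries of male mice, 1 of the 6 (Cyp2c38) was higher in Xbp1 LKO on chow, against 1.73% of all genes tested, where all 6 estimates were positive with a median of 1.40. Without chow-fed Xbp1 LKO library 2 these were 5 positive and 1 negative with a median of 1.15, and 0 passed. On the HFS diet 2 (Cyp2c38 and Cyp2c39) were higher, against 1.92%, with 4 positive, 2 negative and a median of 0.79. Between diets 0 of the 6 passed in either genotype by edgeR, with Cyp2c69 called lower in Xbp1 LKO by DESeq2. Apart from Cyp2c38, these 6 genes had means under 3 CPM. Of the male-biased members Cyp2d9 and Cyp2j5, 0 passed in any comparison.

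Electron supply and heme were followed in 16 genes, all tested. By diet edgeR called 0 of them (Cyb5b had an adjusted p of 0.0656). By genotype it called 1 lower on both diets (3.02% of all genes on chow, 2.16% on the HFS diet) and 0 higher. This gene was Blvra, biliverdin reductase, which acts on a product of heme breakdown and not in P450 catalysis. It was at 14.1, 14.5 and 13.2 CPM in chow-fed Xbp1 fl/fl, 6.14 and 5.37 in chow-fed Xbp1 LKO, 14.1, 15.2 and 14.0 in HFS-fed Xbp1 fl/fl, and 6.27, 6.99 and 8.36 in HFS-fed Xbp1 LKO libraries. The genotypes did not overlap, with log2 fold changes of -1.28 (SE 0.15, adjusted p = 0.00254, edgeR) on chow and -0.998 (SE 0.13, adjusted p = 0.00276) on the HFS diet, and both calls held in all 19 alternative fits.

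The other genes of that list with the smallest p did not pass by edgeR, although DESeq2 called Cyb5b, a cytochrome b5, lower in Xbp1 LKO on chow (adjusted p = 0.00638) and lower on the HFS diet in Xbp1 fl/fl (adjusted p = 1.18e-06). By edgeR they were on chow Cyb5b (log2 fold change -0.37, adjusted p = 0.124) and the heme oxygenase Hmox1 (0.77, adjusted p = 0.178), and on the HFS diet Hmox1 (0.84, adjusted p = 0.133) and Cpox of heme synthesis (0.36, adjusted p = 0.225). Between diets in Xbp1 fl/fl they were Cyb5b (-0.56, adjusted p = 0.0656), Hmox1 (-0.89, adjusted p = 0.336) and Por (0.73, adjusted p = 0.398), and in Xbp1 LKO Hmox1 (-0.81, adjusted p = 0.298), Hmox2 (-0.39, adjusted p = 0.398) and Blvra (0.32, adjusted p = 0.407). For the interaction they were Por (-1.07, adjusted p = 0.726), Cyb5b (0.41, adjusted p = 0.784) and Alas1 of heme synthesis (-0.94, adjusted p = 0.818). Por, the electron donor of all members, ranged from 486 to 1465 CPM.

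Among 30 receptors and regulators 29 were tested. On chow edgeR called 3 higher in Xbp1 LKO and 0 lower (1.73% and 3.02% of all genes tested). DESeq2 called the same 3 higher and 0 lower (422 and 708 of 13299 genes in all). Stat5a, which carries growth hormone signals, had a log2 fold change of 0.85 (SE 0.20, adjusted p = 0.0327, edgeR), Ahr, the receptor that induces Cyp1a genes, had 0.83 (SE 0.20, adjusted p = 0.0413), and the repressor Tbx3 had 1.38 (SE 0.34, adjusted p = 0.0436). All 3 calls were lost without chow-fed Xbp1 LKO library 2, which left 1 library in that group. The values there were 0.53 (Stat5a), 0.53 (Ahr) and 0.94 (Tbx3). The 3 calls were also lost by edgeR with only the groups compared (adjusted p 0.13, 0.146 and 0.128). The same held without chow-fed Xbp1 fl/fl library 2 (adjusted p 0.102, 0.109 and 0.0888) or 3 (0.0742, 0.0742 and 0.0586). Libraries of groups not compared mattered too. Ahr was lost without each HFS-fed Xbp1 LKO library in turn (adjusted p 0.0569 to 0.0596). Tbx3 was lost without each HFS-fed Xbp1 fl/fl library in turn (0.0578 to 0.0655), and Stat5a without library 3 of that group (0.0534). On the HFS diet Nfe2l2, which drives antioxidant genes, was higher (0.59, SE 0.12, adjusted p = 0.0191), a call lost in 4 of the 11 fits without 1 library, and Tbx3 (1.15, adjusted p = 0.0676) and Stat5a (0.63, adjusted p = 0.0770) came next. DESeq2 called these 3 and Ahr higher (3.49% of all genes, against 1.92% by edgeR).

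Ahr was at 50.3, 32.0 and 42.8 CPM in chow-fed Xbp1 fl/fl and 60.5 and 87.7 in chow-fed Xbp1 LKO hepatocytes, without overlap. Its well known target Cyp1a1 was at 0.846 to 3.07 CPM over all libraries and passed in no comparison. Between diets 0 of the regulators passed in either genotype by edgeR, while DESeq2 called Bcl6 higher in Xbp1 fl/fl (adjusted p = 0.0271). The smallest p by edgeR were those of Bcl6 (log2 fold change 1.29, adjusted p = 0.266), Nr0b2 (1.09, adjusted p = 0.324) and Tiparp (-0.42, adjusted p = 0.532) in Xbp1 fl/fl, and of Cebpb (-0.81, adjusted p = 0.253), Nr0b2 (1.25, adjusted p = 0.254) and Ghr (0.53, adjusted p = 0.298) in Xbp1 LKO. The interaction passed for 0 regulators, with Cebpb (-1.14, adjusted p = 0.682), Foxa2 (-0.75, adjusted p = 0.712) and Nfe2l2 (0.44, adjusted p = 0.784) first. Nr1i2 ranged from 91.0 to 116 CPM and Nr1i3 from 53.4 to 104 CPM.

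Markers of other cell types were low beside those of hepatocytes but moved with the groups. Summed over 10 genes each, macrophage markers were at 17.7 to 78.4 CPM in chow-fed Xbp1 fl/fl, 20.3 to 30.0 in chow-fed Xbp1 LKO, 34.1 to 49.9 in HFS-fed Xbp1 fl/fl and 48.0 to 90.7 in HFS-fed Xbp1 LKO. Endothelial markers were at 45.7 to 108, 27.1 to 35.8, 88.1 to 150 and 71.9 to 112 CPM, and stellate markers at 16.6 to 54.7, 11.8 to 14.4, 29.5 to 51.6 and 31.9 to 66.3 CPM, in the same order of groups. All 10 macrophage, all 10 endothelial and all 8 tested stellate estimates were negative for genotype on chow (median log2 fold change -0.52, -1.29 and -1.24) and positive for diet in Xbp1 LKO (1.31, 1.52 and 2.27). For genotype on the HFS diet all 10 macrophage estimates were positive (0.61), all 10 endothelial ones negative (-0.45), and of the stellate ones 5 were positive and 3 negative. For diet in Xbp1 fl/fl the endothelial and stellate estimates were all positive (0.80 and 0.49), and those of macrophages were 5 positive and 5 negative.

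By edgeR 0 genes of these 3 lists passed in any comparison. DESeq2 called 6 endothelial and 2 stellate genes lower in chow-fed Xbp1 LKO (708 of 13299 genes in all). It called 9 endothelial and 4 stellate genes higher on the HFS diet in Xbp1 LKO (153 of 13299 genes in all). Cholangiocyte markers were at 18.4 to 36.5 CPM, with 1 of 3 tested lower in chow-fed Xbp1 LKO (3.02% of all genes tested). Lymphocyte and neutrophil markers reached at most 4.03 CPM. The 3 intestinal markers summed to 42.5 to 94.4 CPM in chow-fed Xbp1 fl/fl and 27.8 to 35.2 in chow-fed Xbp1 LKO libraries. On the HFS diet they summed to 137 to 211 in Xbp1 fl/fl and 76.0 to 108 in Xbp1 LKO. Of them Cdx2 was at 0 in all libraries, and the 1 tested by edgeR passed in no comparison. DESeq2 called Fabp2 lower in Xbp1 LKO on both diets (708 and 543 of 13299 genes in all). It called Fabp2 higher on the HFS diet in Xbp1 fl/fl (71 of 12783) and Xbp1 LKO (153 of 13299). Of the hepatocyte markers edgeR called 5 of 14 lower in Xbp1 LKO on chow and 3 of 14 on the HFS diet (3.02% and 2.16% of all genes tested). DESeq2 called 7 and 8 of them lower (708 and 543 of 13299 genes in all). Without chow-fed Xbp1 LKO library 2 the chow median log2 fold change of the 14 markers was -0.54, against -0.80 with it. The part of any of these cell types in the results was not tested.

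Of the other members, Cyp1a1, Cyp2c23, Cyp2c37, Cyp2c50, Cyp2c54, Cyp2c55, Cyp2c67, Cyp2c68, Cyp2d10, Cyp2d11, Cyp2d22, Cyp2d26, Cyp2j6, Cyp2j9, Cyp3a13, Cyp3a16 and Cyp3a57 were tested and passed in no comparison in the main edgeR fit. DESeq2 called Cyp2c67 lower in HFS-fed Xbp1 LKO beside Cyp2e1 and Cyp2f2 (4.08% of all genes). There the log2 fold change of Cyp2c67 was -1.18 (SE 0.35, adjusted p = 0.0858 in the main edgeR fit). It was also called lower there by edgeR with no filter, with only the groups compared and without chow-fed Xbp1 fl/fl library 3. Cyp2c67 was at 220.4, 103 and 124 CPM in HFS-fed Xbp1 fl/fl and 71.2, 52.8 and 72.7 in HFS-fed Xbp1 LKO libraries, without overlap, and 47.2% of its windows occur in no other gene. Cyp3a57, whose upstream bases were 90.1% identical to those of Cyp3a59, was at only 0.102 to 0.588 CPM.

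The other 10 members (Cyp2c65, Cyp2c66, Cyp2d34, Cyp2j7, Cyp2j8, Cyp2j11, Cyp2j12, Cyp2j13, Cyp3a41a and Cyp3a41b) had at most 10 counts in any library and were not tested, and Cyp2c66, Cyp2j7 and Cyp2j12 had 0 counts in all libraries. Cyp3a41a and Cyp3a41b are near-identical copies, with 1.4% and 6.5% of windows unique, so their low counts do not tell their expression. Among members above 10 CPM, 8 had under 80% unique windows. The excluded pseudogene Cyp2d37-ps was at 69 to 130 CPM.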

How the data were processed

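The authors deposited whole-number counts per Ensembl gene, neither normalized nor filtered, in 1 file per library. The study's methods name kallisto with tximport, whereas the submitters' processing notes name cutadapt 1.13, STAR, HTSeq 0.6.1p1 and mm10, and the files do not say which made them. Of 893 genes whose transcripts are all identical to those of another gene, 1 had 11 or more counts over all libraries, so reads that could not be told apart were hardly counted for such genes. Groups came from the sample labels. Library totals were 19191032 to 23888401, and pairs of replicates spread more widely than counting alone allows (chi-square over its degrees of freedom 25.6 to 93.7), so no counting intervals are given.

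CPM, TMM factors and tests were computed with edgeR 4.0.16 in R 4.3.3. Low counts were removed (filterByExpr, minimum count 10), 13303 genes were fitted by quasi-likelihood in a model of the 4 groups over all 11 libraries, and p-values were adjusted over all genes tested (Benjamini-Hochberg, threshold 0.05). Alternatives were DESeq2 1.42.0, RLE size factors, library totals, no filter, a stricter filter (50 counts in 2 libraries), only the groups compared, a replicate block and each library left out in turn. The code was tested on simulated data. Level per length used the union of exon bases, and windows of 50 bases of the GENCODE M21 transcripts were compared between genes. Sequences came from the RefSeq promoter table, which held 38 of 44 members.

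Members and gene lists were chosen with earlier results of these data known. Values in every library are given for members that passed in any comparison and for the member of highest mean CPM in each family, and fold changes for the 3 smallest p in each comparison and list. Cyp3a44's range, the Cyp2c69, Cyp2c40, Cyp2c67 and Cyp2d26 values and Ahr's were added after their values were seen, as were a replicate block with another number for 1 library and the lists without chow-fed Xbp1 LKO library 2 or by DESeq2.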

Additional observations from a re-analysis of the deposited data

How the results depend on the processing

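No called member reversed its direction under any alternative. Fold changes printed for 25 combinations of member and comparison gave 468 values under the alternatives, of which 370 kept their side of the threshold, 26 passed it newly and 72 no longer passed it. For members higher in chow-fed Xbp1 LKO (1), library totals gave 6, no filter on low counts 3 and only the groups compared 0. Over all genes tested, 230 of 13303 were higher in the main fit, 2685 of 13303 with library totals and 676 of 26016 with no filter. With only the groups compared these were 75 of 12367. For members lower on chow (1), no filter gave 4, where 831 of 26016 genes were lower in all, against 402 of 13303 in the main fit. For members lower in HFS-fed Xbp1 LKO (1), DESeq2 gave 3, no filter 4 and only the groups compared 2. Over all genes these settings gave 543 of 13299, 704 of 26016 and 420 of 12480, against 287 of 13303 in the main fit. For diet in Xbp1 fl/fl, the 1 higher became 3 with no filter. The 2 lower became 0 with RLE size factors, 5 with no filter, 1 with a stricter filter, 0 with only the groups compared and 0 with the replicate block. Over all genes no filter gave 251 higher of 26016, against 18 of 13303 in the main fit. Lower were 39 of 13303 in the main fit, 32 of 13303 with RLE size factors and 248 of 26016 with no filter. The stricter filter gave 34 lower of 10580, only the groups compared 30 of 12071 and the replicate block 32 of 13303. For diet in Xbp1 LKO, the 1 higher became 3 with no filter and 0 with only the groups compared. The 0 lower became 3 with DESeq2 and 6 with no filter. Over all genes no filter gave 459 higher and 263 lower of 26016, against 6 and 2 of 13303 in the main fit. Only the groups compared gave 0 higher of 12927, and DESeq2 gave 60 lower of 13299. For the interaction, no filter gave 1 higher (Cyp2f2) and 2 lower (Cyp2c40 and Cyp2c69) in place of 0. Over all genes it gave 161 higher and 108 lower of 26016, against 0 of 13303 in the main fit. The cause of these changes in calls was not tested.

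Leaving out 1 library at a time gave 0 to 2 higher and 0 to 1 lower by genotype on chow, 1 to 3 higher and 0 to 2 lower on the HFS diet, 0 to 1 higher and 0 to 1 lower for diet in Xbp1 fl/fl, 0 to 1 higher for diet in Xbp1 LKO, and no change for the interaction. Hmox1, which passed in no comparison in the main fit, changed sign without chow-fed Xbp1 LKO library 2, to -0.0744 for genotype on chow and 0.0385 for diet in Xbp1 LKO, against 1.3015 and -1.3479 without library 1. For genotype on the HFS diet Hmox1 passed by edgeR with library totals (adjusted p = 0.0368), no filter (0.000294) and only the groups compared (0.0248). For genotype on chow it passed with library totals (0.029) and no filter (0.00237). Deviations of same-numbered libraries from their group means had correlations of -0.199 to 0.231 (15 pairs). Differently numbered pairs were not set beside them, and deviations within so small a group sum to 0. This check therefore cannot tell whether the numbers pair libraries. The replicate block gave 1 higher and 1 lower on chow, 2 and 1 on the HFS diet, 1 and 0 for diet in Xbp1 fl/fl, 1 and 0 in Xbp1 LKO and 0 for the interaction. Over all 13303 genes it gave 146 higher and 309 lower on chow, and 187 and 225 on the HFS diet. For diet it gave 6 and 32 in Xbp1 fl/fl and 12 and 7 in Xbp1 LKO, and for the interaction 0. The calls of Stat5a, Ahr and Tbx3 on chow were lost with this block (adjusted p 0.0747, 0.0865 and 0.0601). A chow-fed Xbp1 LKO library carries the number 2 in its title and 3 elsewhere, so the pairs rest on a doubtful number. With 3, an alternative chosen after seeing the data, correlations were -0.199 to 0.249. The block then gave 0 higher and 1 lower on chow, 2 and 1 on the HFS diet, 0 and 0 for diet in Xbp1 fl/fl, 1 and 0 in Xbp1 LKO and 0 for the interaction. Over all 13303 genes it then gave 157 higher and 331 lower on chow, and 190 and 239 on the HFS diet. For diet it gave 6 and 34 in Xbp1 fl/fl and 42 and 11 in Xbp1 LKO, and for the interaction 0. Family means, and those over all members, were each compared with their values under RLE size factors and under library totals. Of these 64 comparisons over both scalings, 9 moved by more than the spread of libraries, all with library totals.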
